A study of Homo sapiens with 33 samples.

Results

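The 45 genes described here encode lysosomal proteins, the autophagy machinery and the transcription factors that control both. They form a fixed list of names, and all 45 matched a row among the 62446 gene rows of the count files. The question put to them was whether an inhibitor of the kinase GSK3 and a glucocorticoid moved their transcripts in the same direction. The study took RNA from human acute lymphoblastic leukaemia (ALL) lines and sequenced 33 libraries in 11 groups of 3. Nalm6 is a B-cell precursor ALL line, CEM is a T-cell ALL line, and a CRISPR/Cas9 edited Nalm6 derivative was targeted at TLE1, a gene for a transcriptional co-repressor.

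The parental Nalm6 groups were untreated, 0.5 µM CHIR-99021 (the GSK3 inhibitor), 5 µM prednisolone, and 100 nM dexamethasone with a second untreated group labelled as its control. The knockout groups were untreated, 5 µM prednisolone and 100 nM dexamethasone. The CEM groups were untreated, 2 µM CHIR-99021 and 10 µM prednisolone. Every drug was given for 24 h. Per the labels' protocols, Nalm6 and knockout cells grew in serum stripped with charcoal, a step that removes steroids. The labels name no clone for the knockout. They do not say which untreated Nalm6 group belongs with the parental prednisolone libraries, and the knockout dexamethasone libraries have no untreated group labelled as theirs. The treatment protocol names prednisolone for Nalm6 and CHIR-99021 for the knockout, while titles and treatment labels give the groups listed here, which were followed.

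Lysosomes break down material delivered by endocytosis and autophagy. Proton pumps acidify them, cathepsins cut proteins, and glycosidases remove sugars from lipids and proteins. In autophagy, the ULK1 and BECN1 complexes start a membrane that grows with ATG2A, ATG9A and WIPI proteins. ATG8-family proteins (LC3 and GABARAP) are then conjugated to it and bind cargo receptors such as SQSTM1. TFEB, TFE3 and MITF are related factors that bind an E-box in the promoters of many of these genes. mTORC1 phosphorylates TFEB and holds it in the cytoplasm, and GSK3 has been reported to phosphorylate it too. Transcript counts do not report where TFEB protein is, or how much material autophagy degrades.

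The promoters are shown because the E-box is the site through which TFEB and its relatives act. A RefSeq table (GRCh38.p14) of 250 bases before to 50 bases after each start site gave 41 windows for 34 of the 45 genes; LAMP2, CTSB, CTSS, HEXA, NAGLU, PSAP, ATP6V1A, ATP6V1H, MAP1LC3A, UVRAG and TP53INP1 had none. The E-box core CACGTG, which reads the same on both strands, stood in 8 of the windows (19.5%), against 7.26% of all 35116 windows. The longer TCACGTGA, which contains that core and also reads the same on both strands, stood in 5 (12.2%), against 0.98% of all windows. Genes with the longer form were LAMP1, MCOLN1, CTSA, GAA and ATP6V0D1; CTSD, NEU1 and ATG14 held the core alone. Below are 3 windows with the longer form, that of NEU1, which rose with both drugs in Nalm6, and that of CTSC, which moved oppositely with them and holds no core. Capitals mark the core. The windows are chr13:113296989-113297288 (plus strand) for LAMP1, chr19:7522374-7522673 (plus) for MCOLN1, chr20:45891085-45891384 (plus) for CTSA, chr6:31862772-31863071 (minus) for NEU1 and chr11:88337687-88337986 (minus) for CTSC.
LAMP1: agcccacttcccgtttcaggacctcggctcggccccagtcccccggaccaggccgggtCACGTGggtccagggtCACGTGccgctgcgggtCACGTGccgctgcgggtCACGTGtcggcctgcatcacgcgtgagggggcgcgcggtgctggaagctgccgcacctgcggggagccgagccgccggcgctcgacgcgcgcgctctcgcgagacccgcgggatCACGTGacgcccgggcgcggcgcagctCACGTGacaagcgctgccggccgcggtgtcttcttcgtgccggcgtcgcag
MCOLN1: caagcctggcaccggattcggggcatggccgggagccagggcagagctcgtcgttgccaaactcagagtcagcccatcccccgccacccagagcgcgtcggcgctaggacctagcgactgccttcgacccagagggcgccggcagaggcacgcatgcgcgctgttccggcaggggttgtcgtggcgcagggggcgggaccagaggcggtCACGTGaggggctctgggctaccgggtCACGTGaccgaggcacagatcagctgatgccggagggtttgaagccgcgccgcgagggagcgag
CTSA: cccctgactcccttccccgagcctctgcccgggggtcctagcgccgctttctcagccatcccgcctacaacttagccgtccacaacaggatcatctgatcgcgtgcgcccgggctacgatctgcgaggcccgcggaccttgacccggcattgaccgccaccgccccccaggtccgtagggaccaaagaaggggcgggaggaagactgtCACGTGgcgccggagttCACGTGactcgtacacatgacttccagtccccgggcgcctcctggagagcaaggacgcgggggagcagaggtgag
NEU1: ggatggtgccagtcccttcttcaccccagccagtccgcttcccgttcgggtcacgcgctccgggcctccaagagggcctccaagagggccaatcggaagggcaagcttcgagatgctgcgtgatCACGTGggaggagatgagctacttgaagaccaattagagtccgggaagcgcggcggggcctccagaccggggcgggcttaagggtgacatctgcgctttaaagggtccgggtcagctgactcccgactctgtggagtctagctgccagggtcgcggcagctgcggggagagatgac
CTSC: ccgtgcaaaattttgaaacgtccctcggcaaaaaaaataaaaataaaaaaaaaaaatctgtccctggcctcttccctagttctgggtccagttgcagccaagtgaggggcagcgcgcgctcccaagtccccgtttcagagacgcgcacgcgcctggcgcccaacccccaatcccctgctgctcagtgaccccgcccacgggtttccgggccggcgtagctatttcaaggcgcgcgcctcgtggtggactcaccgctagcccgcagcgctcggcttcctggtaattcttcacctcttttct
LAMP1 held 6 copies of the core, MCOLN1 and CTSA 2 each, and NEU1 1, which begins at position -126 from its start site. A match describes these letters and shows no binding.

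Libraries held 25292579 to 61930057 counts in genes. All 8 B-cell precursor markers were at 1 CPM (counts of a gene per 1000000 gene counts of its library) or more in every Nalm6 and knockout library, and all 8 T-cell markers in every CEM library. The 8 monocyte and macrophage markers, of cells rich in lysosomes, summed to 0.646 to 7.23 CPM, highest in the untreated group of the dexamethasone set. TSC22D3, a glucocorticoid target, rose from 21.6 to 348 CPM with prednisolone in Nalm6 and was called higher in every steroid comparison. AXIN2, a target of Wnt signalling, which GSK3 inhibitors raise, had 3.7 CPM in untreated Nalm6 and 3.23 with CHIR-99021 (adjusted p = 0.221), and 0.994 and 1.43 in CEM (adjusted p = 0.0644). TLE1 itself gave 25.4, 24 and 24 CPM in the untreated knockout libraries. The untreated parental groups had 30.2, 34 and 31.8 CPM and, in the dexamethasone set, 26, 27.2 and 27.9. Every untreated knockout library thus lay below every untreated parental one, and TLE1 was called lower than in the first parental group (-0.36, SE 0.06, edgeR adjusted p = 0.002). In the knockout TLE1 had 54.5, 69 and 64.1 CPM with prednisolone and 57.5, 55.3 and 59 with dexamethasone. These counts show a small drop of the TLE1 transcript and not its loss, and whether the protein was lost was not tested.

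Each comparison was tested on 3 libraries a group by the quasi-likelihood test of edgeR, and p-values were adjusted (Benjamini-Hochberg) over all genes that passed a filter on low counts. A gene is called, or said to rise or fall, at an adjusted p under 0.05; each adjusted p below is from that test, and fold changes are log2 values with their standard error (SE). Of the 45 members, 40 passed the filter in all 15 comparisons. CTSL had no count in 32 of the 33 libraries and MAP1LC3A never exceeded 0.129 CPM, so neither was tested. MITF was tested in 5 comparisons, CTSH in 6 and ULK2 in 12, each passing only where some group held it. The untreated Nalm6 groups differed from each other: 27 of 41 members were higher and 4 lower in the group of the dexamethasone set, beside 25.8% and 24.4% of all genes. GAA, the acid alpha-glucosidase, had 37.9, 41.4 and 40.8 CPM there against 25.9, 25.7 and 26.4 (0.68, SE 0.05), and CTSZ 0.638, 1.11 and 1.04 against 0.323, 0.326 and 0.348 (adjusted p = 4.78e-04), though its fold change was -0.15 in counts that ignore strand. ATG7 was lower there, at 26.3, 27.7 and 26.7 CPM against 31.7, 30.6 and 30.9 (-0.15), as was HEXA, at 45.1, 43.3 and 45.9 against 50.6, 53.2 and 48.7 (-0.12). The account of steroid responses in Nalm6 therefore gives each prednisolone fold change against both untreated groups.

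In untreated cells the members spanned a wide range of levels. Per kb of exon, PSAP, the precursor of the saposins that help glycosidases reach lipids, was highest in both lines, at 47.1 CPM per kb in Nalm6 and 197.0 in CEM. In Nalm6, GUSB (28.3) and LAMP1 (20.3) came next, and in CEM, LAMP2 (27.1) and ATP6V1A (24.7). TP53INP1 (1.87 CPM per kb) and GABARAPL1 (0.309) were among the lowest in Nalm6, ranking 38 and 40 of 45.

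CEM and Nalm6 differed in most members before any drug. Against the untreated group of the dexamethasone set, 11 members were higher in CEM and 26 lower among 42 tested, beside 40.2% and 37.3% of all genes. CTSH, an aminopeptidase of the cathepsin family, had 58.6, 56.9 and 56.3 CPM in CEM and 0.044, 0 and 0 in Nalm6, which is at least 621-fold higher against a floor of 3 counts per library. ULK2, a kinase related to ULK1, had 0, 0.0219 and 0 CPM in CEM and 6.16, 6 and 5.7 in Nalm6, at least 67.2-fold lower. CTSS, a cathepsin of antigen-presenting cells, had 5.79, 5.64 and 5.97 CPM in CEM against 49.5, 44.8 and 46.5 (-3.06, SE 0.06). None of these 3 genes had overlapping groups. CTSB (-2.41, SE 0.07) and TFEB (-2.15, SE 0.08) were also lower in CEM, and GABARAPL1 (2.15, SE 0.13) and PSAP higher, PSAP at 631, 636 and 653 CPM against 154, 158 and 163 (1.97, SE 0.04). TFE3 was higher in CEM by 0.27. Against the other untreated Nalm6 group, the calls for CTSA (-0.04), NAGLU (0.06) and ATG9A (-0.04) were lost, ATP6AP1 turned from -0.31 to 0.09 (adjusted p = 0.02), and CTSZ, not called in the first (-0.05), had 1.47 (adjusted p = 2.47e-05).

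**Figure D1:**
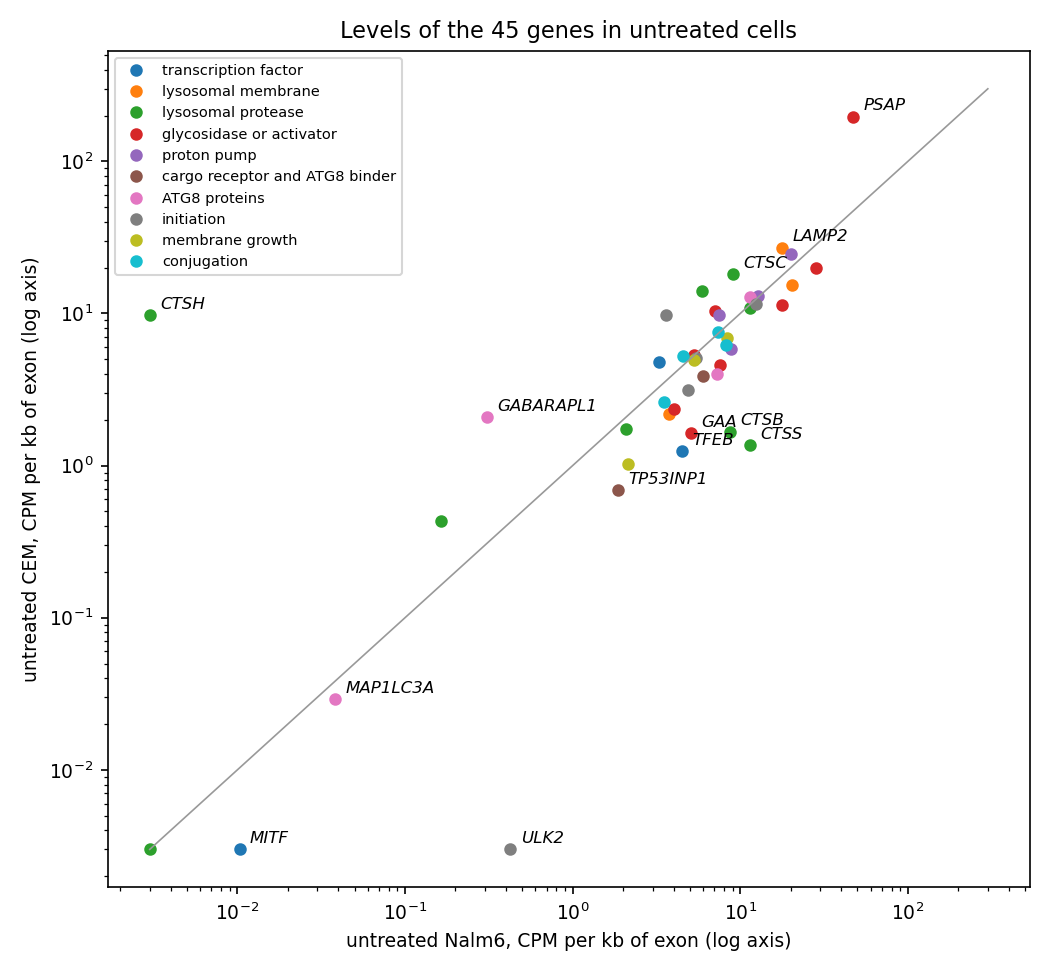
Mean CPM per kb of exon in untreated CEM (vertical, log axis) against untreated Nalm6 of the CHIR-99021 set (horizontal, log axis) for the 45 genes, 3 libraries a group, coloured by role; genes at or near 0 are drawn at the edge of the plot. The line marks equal levels: PSAP lies highest on both axes, CTSH stands at the Nalm6 edge and ULK2 at the CEM edge.

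Dexamethasone, which has a labelled control group, raised most members in Nalm6. Of 42 tested, 27 rose and 6 fell, beside 30.2% and 30.2% of all genes (median 0.33, and 0.02 over all genes tested). The 45 members made up 0.202% ± 0.00305 (SD, n = 3) of gene counts in the untreated group and 0.351% ± 0.00145 with dexamethasone. Their summed mean CPM went from 2016 to 3514. TP53INP1 alone went from 18.3, 17.6 and 17.4 to 1011, 1021 and 1023 CPM, so most of the rise in share is this 1 gene. The monocyte and macrophage markers summed to 6.96 to 7.23 CPM in these untreated libraries and 1.66 to 1.7 with dexamethasone, lower where the members were higher. Most of the untreated sum was LYZ (4.49 to 4.93 CPM) and MPO (1.67 to 2.15 CPM), the 2 of 8 at 1 CPM or more in every untreated library. No other marker exceeded 0.23 CPM in these untreated libraries. The part of these markers in the result was not tested. In bulk RNA, more transcript per cell and more cells that carry it cannot be told apart.

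With prednisolone, set against the untreated group of the CHIR-99021 set, 27 of 42 rose and 3 fell, beside 28.7% and 26.1% of all genes (median 0.26, and 0.03 over all genes tested). Against the other untreated group the split was 16 up and 13 down, beside 31.8% and 32.5% of all genes, so the lean toward higher members rests on the choice of control. Of the 30 calls, 18 kept their direction and their call with either control, 15 higher and 3 lower. The higher ones were TFEB, MITF, LAMP2, CTSB, HEXA, SQSTM1, TP53INP1, MAP1LC3B, GABARAPL1, ULK1, BECN1, ATG14, ATG2A, ATG9A and ATG16L1, and the lower ones CTSC, GUSB and GLA. MITF passed the filter only through parental steroid groups in which it is high, so nothing is read from its calls. It is still counted among the members higher with each steroid, these 15, the 28 below and those higher in the direct contrast with CHIR-99021. Prednisolone values below are against the CHIR-99021 set unless the other control is named. Against that control, prednisolone and dexamethasone share no library, and all 28 members called with both moved the same way, as did 99.1% of 8264 genes.

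TFEB and TFE3, transcription factors of lysosomal genes, rose with dexamethasone. TFEB had 27.5, 30.4 and 32.5 CPM in the untreated group of the dexamethasone set and 69.6, 67 and 64.7 with dexamethasone (1.12, SE 0.05, adjusted p = 3.15e-10). It had 25.9, 24.5 and 25.5 CPM in the other untreated group and 50.4, 51.6 and 53 with prednisolone (1.00, SE 0.05; 0.67 against the dexamethasone set's control). Treated libraries lay above every untreated one of either set. TFE3 rose from 15.2, 18.2 and 16.6 to 24.9, 23.1 and 23.5 CPM with dexamethasone (0.48, SE 0.07); with prednisolone it had 0.32 against one control and -0.01 (adjusted p = 0.883) against the other. MITF passed the filter only through the parental steroid groups in which it is high. It never exceeded 0.682 CPM, and its 0.416, 0.344 and 0.261 CPM with dexamethasone, against 0.066, 0.0308 and 0.0288 untreated, were at least 3.69-fold above a floor of 3 counts per library.

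TP53INP1 gave the largest change of any member tested with either steroid. It encodes a stress protein that binds ATG8 proteins. It had 18.3, 17.6 and 17.4 CPM untreated and 1011, 1021 and 1023 with dexamethasone, 55.7-fold higher (5.80, SE 0.05, adjusted p = 7.11e-18). With prednisolone it went from 11, 10.6 and 10.1 to 544, 530 and 527 CPM (5.62, SE 0.05), or 4.79 against the other control. No groups overlapped. SQSTM1 rose by 0.44 (SE 0.04) with dexamethasone, from 43.4, 46.9 and 46.5 to 63.2, 61.9 and 65 CPM, and by 0.29 (SE 0.04) with prednisolone, or 0.21 against the other control.

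Among the ATG8 proteins, MAP1LC3B (LC3B, a usual marker of autophagosomes) had 20.3, 29 and 30.2 CPM untreated and 69.9, 74 and 66.6 with dexamethasone (1.38, SE 0.10). With prednisolone it had 82.1, 85.5 and 82 CPM against 37.4, 40.4 and 37.3 (1.09, SE 0.04), or 1.54 against the other control. GABARAPL1 rose from 2.27, 1.42 and 1.79 to 3.03, 3.72 and 3.39 CPM with dexamethasone (0.82, SE 0.16) and from 1.07, 1.45 and 1.27 to 3.26, 3.26 and 3.09 with prednisolone (1.32, SE 0.14), or 0.67 (adjusted p = 0.00161) against the other control. Treated libraries of both genes lay above the untreated ones of these pairs. GABARAPL2 had 0.11 with dexamethasone (adjusted p = 0.0716).

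All 3 genes of membrane growth rose with dexamethasone, which raised 30.2% of all genes and lowered 30.2%. ATG2A, which transfers lipid, had 0.61 (SE 0.05), and ATG9A, a lipid scramblase of autophagy vesicles, 0.57 (SE 0.05). WIPI1, which binds the lipid made by the BECN1 complex, had 0.41 (SE 0.07). With prednisolone ATG2A (0.37 and 0.20) and ATG9A (0.41 and 0.23) rose against either control, while WIPI1 had 0.68 and 0.01 (adjusted p = 0.942). Of the 5 initiation genes, ULK1 had 26.5, 31.9 and 33.5 CPM untreated and 55.8, 52 and 56 with dexamethasone, without overlap (0.80, SE 0.07). BECN1 (0.37) and ATG14, which directs the BECN1 complex to autophagy (0.20), also rose; ULK2 fell from 6.16, 6 and 5.7 to 5.14, 4.85 and 4.75 CPM (-0.32, SE 0.09), and UVRAG, which directs that complex to endosomes, was not called (0.10, SE 0.05). Of the 4 conjugation genes, ATG4A and ATG16L1 rose, and ATG5 and ATG7 were not called.

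Lysosomal proteases moved in both directions with dexamethasone. CTSB, a cysteine cathepsin, had 59.8, 66.5 and 66.2 CPM untreated and 161, 164 and 167 treated (1.32, SE 0.04, adjusted p = 7.74e-12). CTSC, which activates the serine proteases of granules, fell from 128, 119 and 115 to 55.2, 55 and 55.9 CPM (-1.16, SE 0.05, adjusted p = 7.35e-11). Neither gene's groups overlapped, nor did they with prednisolone, where CTSB had 148, 146 and 152 CPM against 63.7, 65.8 and 63.1 (1.19, or 1.10 against the other control) and CTSC 60.8, 60.4 and 56.9 against 106, 104 and 99.2 (-0.83, or -1.14). TPP1, a tripeptidyl peptidase (0.80), CTSD, the main aspartyl cathepsin (0.38), and CTSA, which protects NEU1 (0.15), rose, and CTSS fell (-0.19). With prednisolone TPP1 (0.50 and -0.17), CTSD (0.06 and -0.21) and CTSA (-0.04 and -0.43) depended on the control. CTSS was not called with prednisolone against either control (0.05 and -0.00).

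Among 8 glycosidases and their activator, 4 rose with dexamethasone and 2 fell, beside 30.2% and 30.2% of all genes. NAGLU rose by 0.66, PSAP by 0.58, HEXA by 0.35 and NEU1, the lysosomal sialidase, by 0.50 (SE 0.04), from 47.6, 45 and 46.7 to 65.6, 69 and 67.6 CPM. GUSB, beta-glucuronidase, fell from 125, 128 and 138 to 105, 103 and 102 CPM (-0.37, SE 0.04), and GLA, alpha-galactosidase, fell from 48.8, 44.9 and 44.4 to 37.5, 38.6 and 38.2 (-0.31, SE 0.05). With prednisolone GUSB had 93, 101 and 102 CPM against 115, 112 and 112 (-0.22, or -0.51 against the other control) and GLA 39.2, 36.6 and 37.5 against 41.3, 39.9 and 39.8 (-0.13, or -0.40), so both fell with both steroids. GAA (0.03) and GLB1 (0.07) were not called. With prednisolone NEU1 had 0.45 against one control and 0.03 (adjusted p = 0.686) against the other, and NAGLU 0.53 and 0.14 (adjusted p = 0.09). Of the 4 proton pump genes, ATP6V1A (0.15) and ATP6AP1 (0.33) rose with dexamethasone and ATP6V1H fell (-0.15). LAMP2, a membrane protein used in fusion with autophagosomes (0.35), and LAMP1 (0.17) rose, and MCOLN1, a calcium channel of the lysosome, was not called (-0.03, SE 0.07). With prednisolone LAMP1 had 0.09 and -0.14 against the 2 controls.

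**Figure D2:**
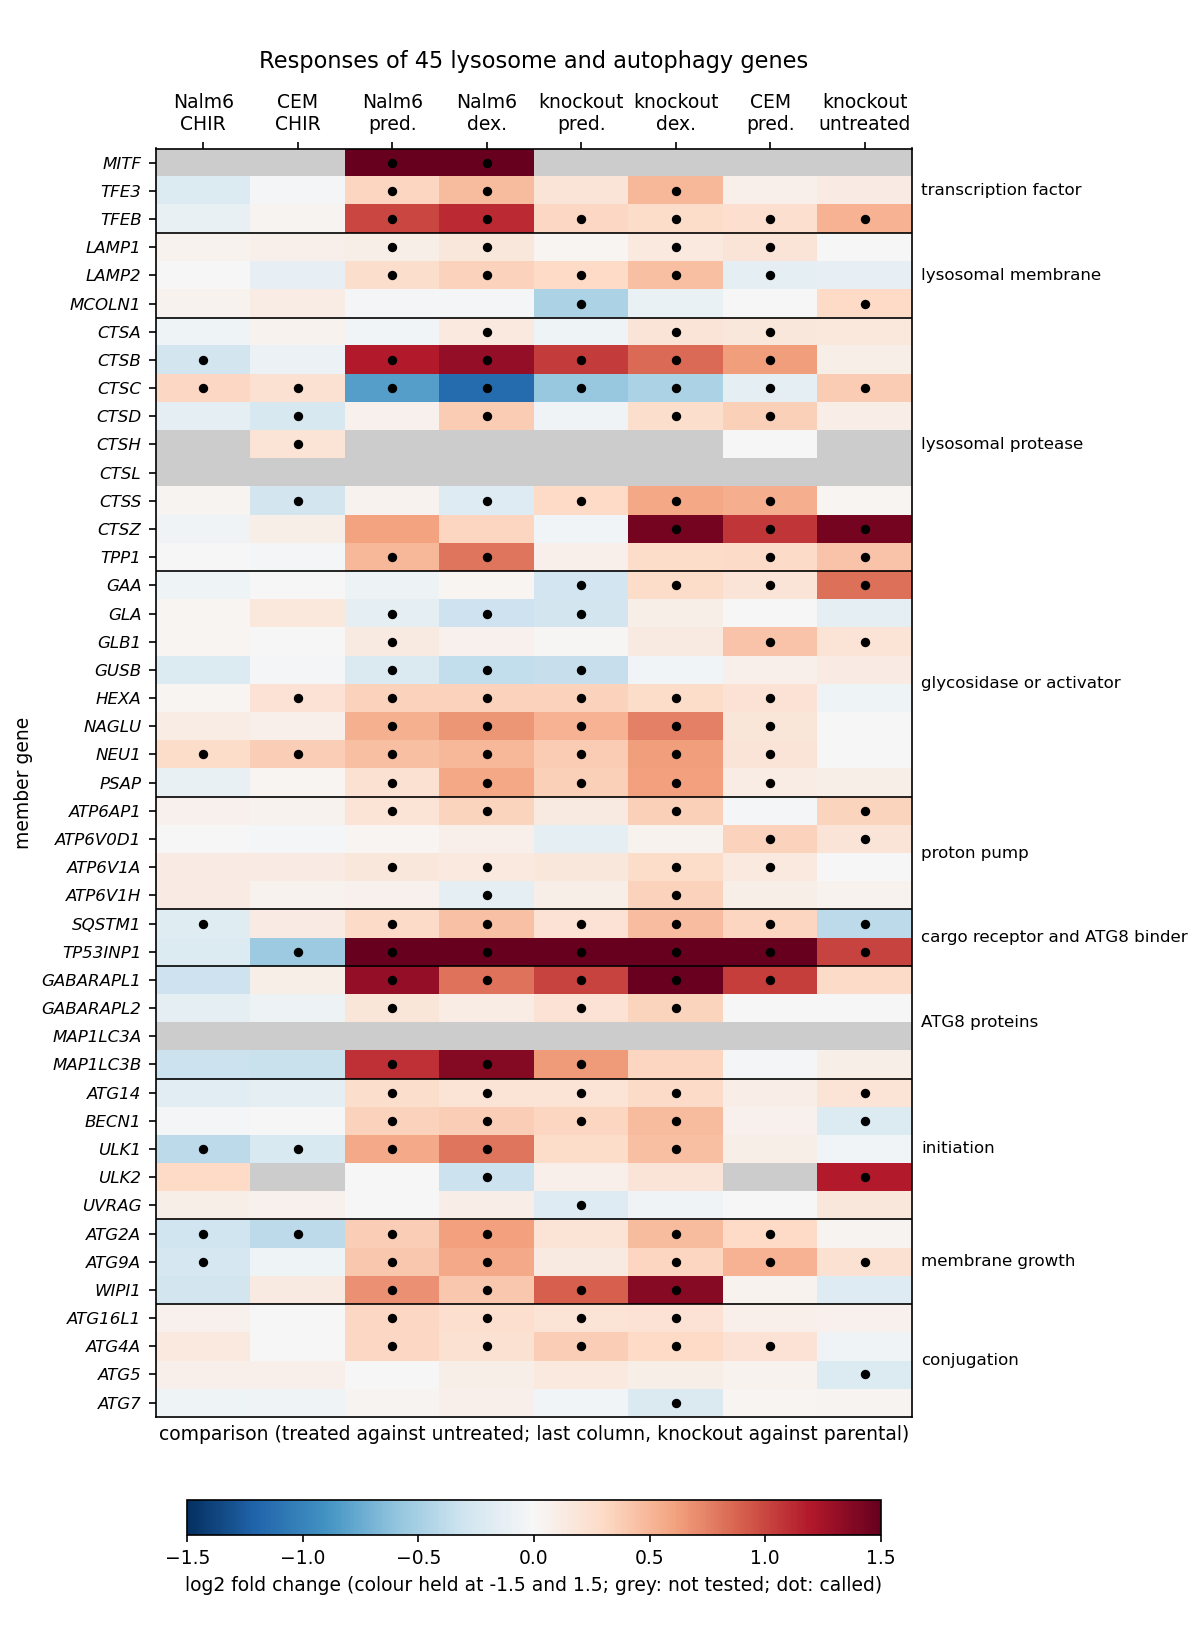
Log2 fold changes of the 45 members (rows, grouped by role) in 8 comparisons (columns), each of 3 against 3 libraries; red is higher and blue lower in the treated or knockout group, colours are held at -1.5 and 1.5, dots mark an adjusted p under 0.05 and grey cells were not tested. The Nalm6 dexamethasone column is mostly red, with 27 members called higher, and the CHIR-99021 columns are pale, with 7 members called in Nalm6 and 9 in CEM.

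CHIR-99021 changed few members in Nalm6, and by small amounts. Of 41 tested, 2 rose and 5 fell, beside 3.16% and 4.72% of all genes (median -0.03, and -0.01 over all genes tested). CTSC rose from 106, 104 and 99.2 to 128, 125 and 129 CPM (0.31, SE 0.04, adjusted p = 0.00144). NEU1 rose from 38.2, 36.2 and 35.8 to 45.2, 43.5 and 44.3 (0.27, SE 0.05, adjusted p = 0.00547). Every treated library was above every untreated one for both genes.

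Of the 5 that fell, ULK1, ATG2A and ATG9A act in starting or growing the autophagy membrane. ULK1 went from 26.1, 28.6 and 27.8 to 21.8, 22 and 18.9 CPM (-0.39, SE 0.07, adjusted p = 0.00649). ATG2A went from 64, 67.1 and 66.4 to 51.1, 54.8 and 54.8 (-0.30, SE 0.05, adjusted p = 0.00382). ATG9A went from 24.6, 25.1 and 25.1 to 20.1, 22.6 and 20.2 (-0.25, SE 0.06). The other 2 were the protease CTSB and the receptor SQSTM1. CTSB went from 63.7, 65.8 and 63.1 to 57.8, 55.1 and 46.8 CPM (-0.27, SE 0.07), and SQSTM1 from 45.5, 45.9 and 45.9 to 38.6, 40 and 42 (-0.18, SE 0.05). All 5 were lower in every treated library than in any untreated one. TFEB had 24, 25 and 21.2 CPM against 25.9, 24.5 and 25.5, overlapping (-0.11, SE 0.07, adjusted p = 0.34), and TFE3 had 12.1, 13.8 and 10.8 against 13.3, 15 and 14 (-0.20, SE 0.09, adjusted p = 0.204).

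Single libraries decided several of these calls. Replicate 3 of the CHIR-99021 group stood apart, with 59.9 CPM of FKBP5 against 113 and 117, and MAP1LC3B read 35.6, 38.5 and 18.3 CPM in replicates 1, 2 and 3. Without it 11 members were called, 4 higher and 7 lower, among them all 7 above. Without untreated replicate 1, 2 or 3 the numbers called were 4, 2 and 3. Over all genes, 1425 (7.88%) were called with every library, 2708 without treated replicate 3 and 409 without untreated replicate 3. The number called thus moved over all genes too, and not only among the members. CTSC was called in 6 of 6 such omissions, ATG2A in 6, ULK1 in 5, NEU1 in 4, CTSB in 3, ATG9A in 2 and SQSTM1 in 1.

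In CEM, at the higher dose of 2 µM, CHIR-99021 raised 4 of 41 members and lowered 5, beside 5.41% and 5.43% of all genes (median 0.01, and 0.00 over all genes tested). NEU1 had 22.3, 21.1 and 22.8 CPM untreated and 27.3, 27.7 and 29.4 treated (0.37, SE 0.05, adjusted p = 8.21e-04). CTSC had 210, 201 and 211 against 237, 239 and 243 (0.23, SE 0.03). ATG2A went from 55, 53.2 and 54.1 to 40.1, 40.3 and 42.3 (-0.39, SE 0.04, adjusted p = 1.03e-04), and none of the 3 overlapped. HEXA, a subunit of beta-hexosaminidase, went from 29, 28.6 and 31.2 to 31.5, 33.7 and 37 CPM (0.22), and CTSH also rose (0.21). TP53INP1 went from 3.86, 3.77 and 4.11 to 2.66, 2.19 and 3.17 CPM (-0.54) and CTSS from 5.79, 5.64 and 5.97 to 4.56, 4.75 and 4.87 (-0.28). CTSD (-0.24) and ULK1 (-0.23) also fell. The CTSS call (adjusted p = 0.0499) was lost in each of 6 omissions of 1 library, and those of HEXA and TP53INP1 were kept in 1 and 2. Without treated replicate 2, 5 members were called. Over all genes, 1865 were called with every library and 1001 without that replicate. TFEB had 6.46, 7.06 and 7.45 CPM untreated and 6.97, 6.47 and 7.76 treated (0.04, SE 0.09, adjusted p = 0.86).

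The CHIR-99021 comparisons of the 2 lines share no library. NEU1 and CTSC rose and ATG2A and ULK1 fell in both, so all 4 members called in both moved the same way; over all genes 459 of 487 did (94.3%). Tested against each other, the responses differed in 1 of 42 members, while 0.63% of genes responded more and 0.545% less in CEM. It was SQSTM1 (0.31, SE 0.07, adjusted p = 0.0386), at 30.2, 29.7 and 29.3 CPM in untreated CEM and 32.3, 30.2 and 33.2 with CHIR-99021, a call kept in 2 of 12 omissions of 1 library.

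Whether GSK3 inhibition and glucocorticoid act alike is read most directly from CHIR-99021 and dexamethasone in Nalm6, which have separate controls. Of 7 members called with both, 6 moved oppositely. CTSB, ULK1, ATG2A, ATG9A and SQSTM1 were lower with CHIR-99021 and higher with dexamethasone, and CTSC was the reverse. Over all genes 906 of 1203 called with both moved oppositely (75.3%), so opposite movement is not particular to the members. NEU1 was the exception and rose with both, by 0.27 with CHIR-99021 and 0.50 with dexamethasone. The count of 6 was 3, 2 and 3 without untreated replicates 1, 2 and 3 of the CHIR-99021 set, and 8 without treated replicate 3. In that last fit GUSB (-0.17) and ATP6V1A (0.13) were also called with CHIR-99021. Like NEU1, both moved the same way as with dexamethasone (-0.37 and 0.15).

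**Figure D3:**
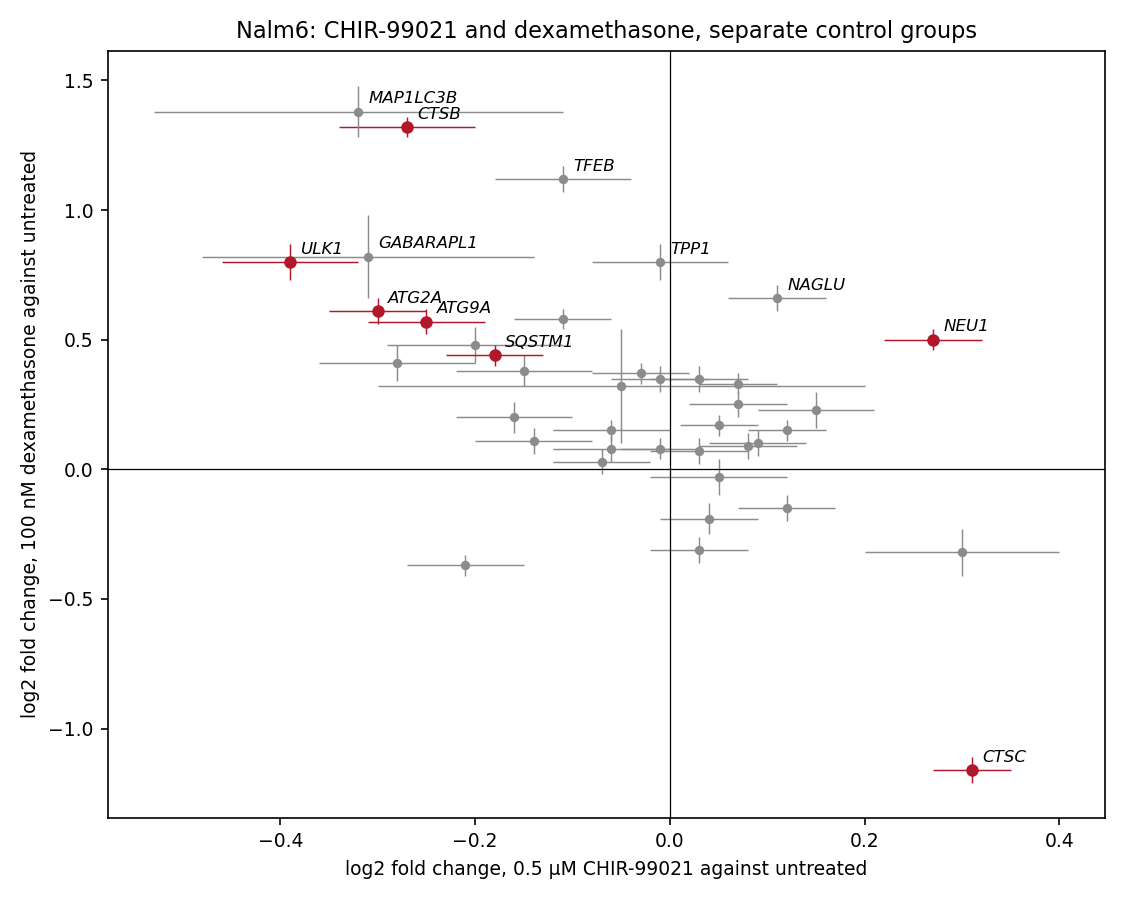
Log2 fold change with 100 nM dexamethasone (vertical) against that with 0.5 µM CHIR-99021 (horizontal) in Nalm6 for 40 members, with standard errors as bars; red points were called in both, and TP53INP1, at 5.80 with dexamethasone, lies beyond the plot. Of the 7 red points, 5 lie at the upper left, CTSC at the lower right and NEU1 at the upper right.

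Prednisolone and CHIR-99021 libraries of a line were compared directly, since their separate comparisons share untreated libraries. In Nalm6 22 of 42 members were higher with prednisolone and 3 lower, beside 27.5% and 25.1% of all genes (median 0.25, and 0.03 over all genes tested). In CEM 18 of 41 were higher and 4 lower, beside 23.8% and 25% (median 0.10, and 0.02 over all genes tested). Whether the Nalm6 prednisolone libraries belong to the CHIR-99021 set is not given, so set and drug cannot be told apart in the Nalm6 contrast.

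All 7 members moved by CHIR-99021 in Nalm6 differed between the drugs, as did 52.7% of all genes; they were picked by a call from the same CHIR-99021 libraries, so nothing is read from that count. CTSB had -0.27 with CHIR-99021 and 1.19 with prednisolone, with shared untreated libraries, and a direct difference of 1.45, SE 0.07, adjusted p = 8.65e-09. ULK1 had -0.39 and 0.57 (direct difference 0.95, SE 0.07), ATG2A -0.30 and 0.37 (0.65, SE 0.06) and ATG9A -0.25 and 0.41 (0.65, SE 0.07). SQSTM1 had -0.18 and 0.29 (0.47, SE 0.06), and CTSC 0.31 and -0.83 (-1.14, SE 0.05, adjusted p = 1.99e-09). NEU1, positive with both (0.27 and 0.45), was higher with prednisolone by 0.17 (SE 0.05, adjusted p = 0.0125; 0.101 by DESeq2). The other large direct differences were in TP53INP1 (5.82), GABARAPL1 (1.62, from 1.02, 1.11 and 0.909 CPM with CHIR-99021 and 3.26, 3.26 and 3.09 with prednisolone), MAP1LC3B (1.40) and TFEB (1.11). MITF had 0.23, 0.079 and 0.204 CPM with CHIR-99021 and 0.407, 0.569 and 0.682 with prednisolone (1.72). It passed the filter here only through the prednisolone group, so nothing is read from that value. ULK2 was lower with prednisolone, at 4.17, 4.27 and 4.33 CPM against 5.29, 5.39 and 4.82 (-0.31), as was GLA (-0.17).

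In CEM, ATG2A had -0.39 with CHIR-99021 and 0.30 with prednisolone (direct difference 0.67, SE 0.04, adjusted p = 9.14e-09), CTSD -0.24 and 0.36 (0.58, SE 0.05), CTSS -0.28 and 0.54 (0.80, SE 0.08) and TP53INP1 -0.54 and 3.05 (3.57, SE 0.09). CTSC had 0.23 and -0.14 (-0.39, SE 0.03). NEU1 rose with both drugs, by 0.37 and 0.19, and was lower with prednisolone, at 25.7, 26.5 and 24.4 CPM, than with CHIR-99021, at 27.3, 27.7 and 29.4 (-0.20, SE 0.05, adjusted p = 0.00575). CTSH was lower with prednisolone too, at 56.1, 58.9 and 61.2 CPM against 62.2, 65.8 and 68.7 (-0.22, SE 0.04). TFEB did not pass the threshold (0.20, SE 0.09, adjusted p = 0.0877), nor did MAP1LC3B (0.29, SE 0.15, adjusted p = 0.136).

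**Figure D4:**
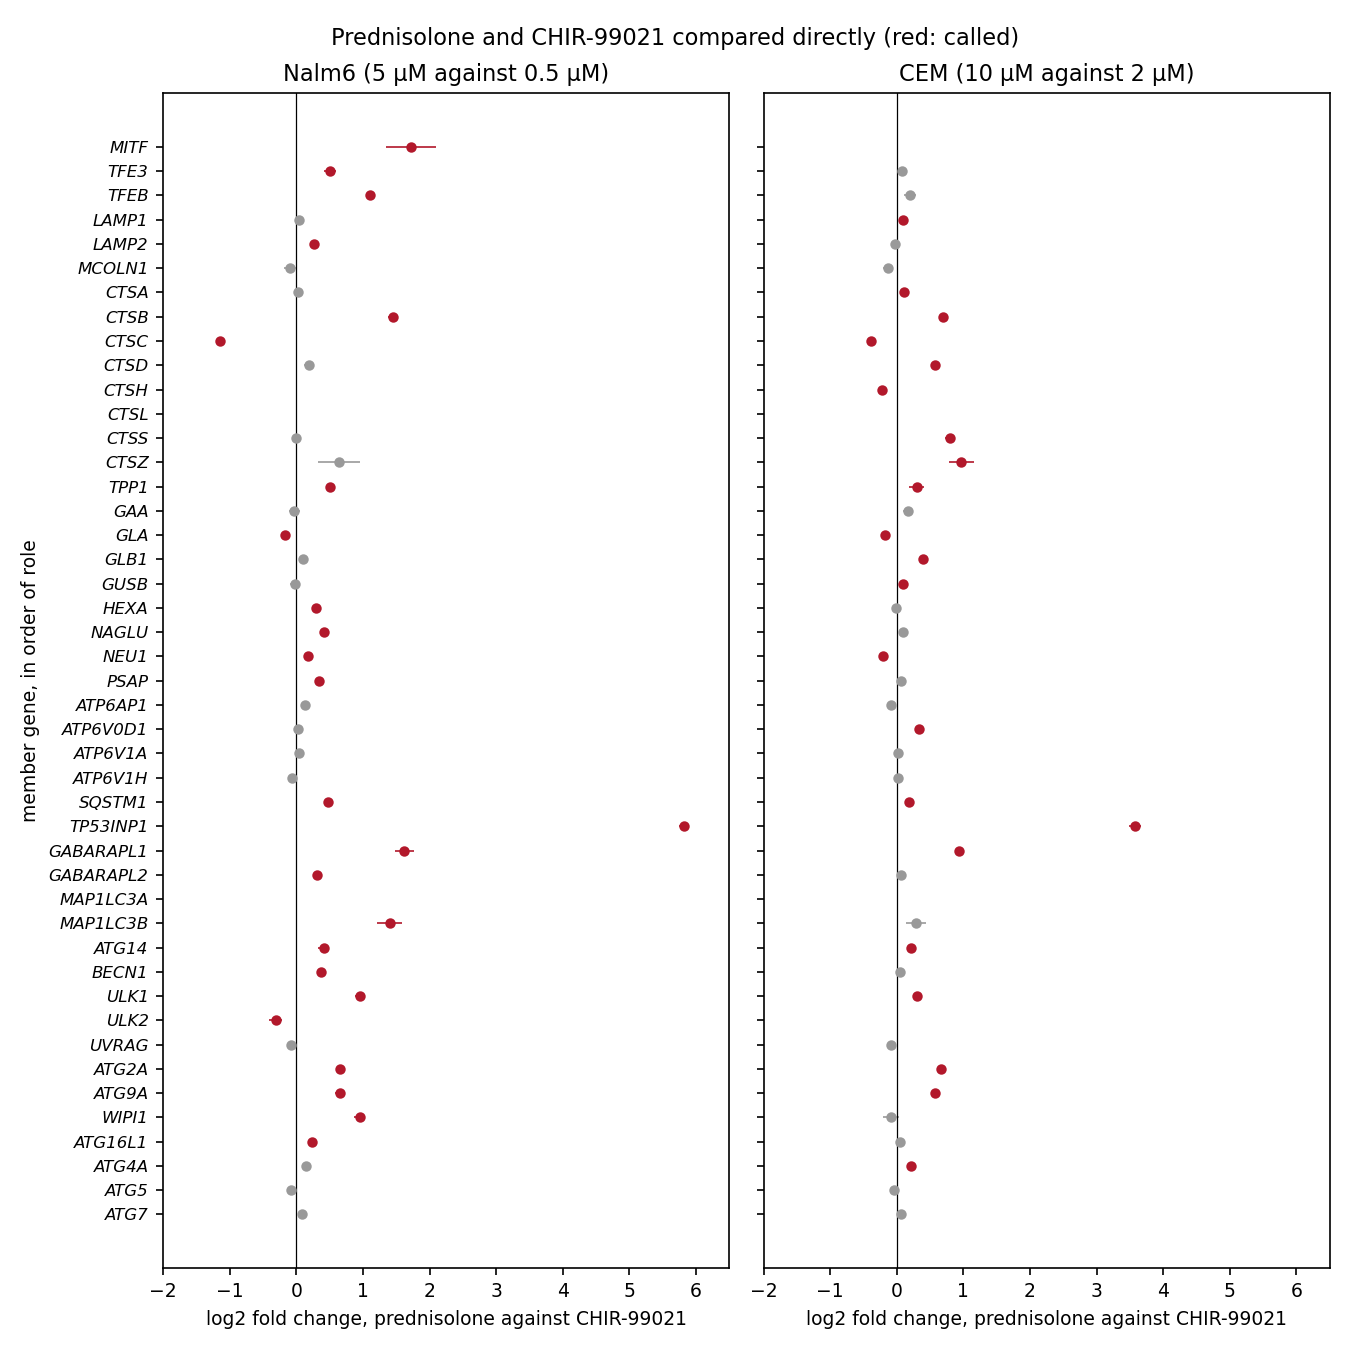
Log2 fold change of prednisolone against CHIR-99021 libraries (horizontal, bars are standard errors) for the members tested (vertical, in order of role) in Nalm6 (left) and CEM (right), 3 libraries a group; red points have an adjusted p under 0.05. CTSC lies left of 0 in both panels, TP53INP1 lies farthest right in both, and NEU1 lies right of 0 in Nalm6 and left of 0 in CEM.

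Prednisolone at 10 µM raised 22 of 41 members in CEM and lowered 2, beside 22.3% and 22.8% of all genes (median 0.15, and 0.02 over all genes tested). TP53INP1 had 3.86, 3.77 and 4.11 CPM untreated and 35.1, 32.1 and 31.7 treated, 8.28-fold higher (3.05, SE 0.07, adjusted p = 3.07e-16). GABARAPL1 had 8.6, 8.18 and 8.78 against 17.9, 18.3 and 17.3 (1.04, SE 0.06), also without overlap. CTSB rose from 10.9, 13.5 and 12.8 to 20.9, 18.5 and 19 CPM (0.63, SE 0.07), but had 0.01 (adjusted p = 0.892) in counts that ignore strand, as CTSZ, at 1.06, 0.899 and 0.68 CPM untreated and 1.73, 2.04 and 2.05 treated, had 0.20 there in place of 1.07. CTSS rose from 5.79, 5.64 and 5.97 to 9.07, 8.37 and 8.26 CPM (0.54) and CTSD from 44.8, 44 and 42.6 to 58.5, 59.5 and 54.7 (0.36). ATG9A (0.52), GLB1 or beta-galactosidase (0.43), ATP6V0D1 (0.34), SQSTM1 (0.32) and ATG2A (0.30) were among the others that rose. TFEB had 9.03, 8.47 and 7.75 CPM against 6.46, 7.06 and 7.45 (0.25, SE 0.08, adjusted p = 0.0229), a call kept in 3 of 6 omissions of 1 library and not by DESeq2 (adjusted p = 0.111). CTSC fell from 210, 201 and 211 to 191, 191 and 194 CPM (-0.14, SE 0.03) and LAMP2 from 150, 150 and 149 to 143, 139 and 136 (-0.13, SE 0.03).

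Prednisolone in CEM was set beside dexamethasone in Nalm6, whose control is labelled. Of 20 members called in both, 18 moved the same way, beside 86.7% of 5378 genes; CTSS and LAMP2 moved oppositely. For prednisolone, the response differed between the lines in 20 of 43 members, 8 higher and 12 lower in CEM, beside 14.7% and 12.2% of genes. With the other untreated Nalm6 group it differed in 26, 17 higher and 9 lower, beside 23% and 16.8% of all genes, and 16 of the 20 calls were kept. TP53INP1 (-2.56, SE 0.09; -1.74 with the other control), MAP1LC3B (-1.10, SE 0.11; -1.57) and TFEB (-0.74, SE 0.09; -0.42) responded less in CEM with either control, and CTSC (0.70, SE 0.05; 1.00), CTSS (0.51, SE 0.08; 0.54) and CTSD (0.32, SE 0.08; 0.58) had the higher value in CEM with either. MAP1LC3B had 19.4, 26.1 and 18.1 CPM in untreated CEM and 22, 21.2 and 20.9 with prednisolone, overlapping (-0.03, SE 0.09), and 0.15 (adjusted p = 0.0289) without untreated replicate 2. Doses were 5 µM in Nalm6 and 10 µM in CEM, so line and dose cannot be told apart.

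In the knockout, prednisolone raised 18 of 41 members and lowered 6, beside 19.8% and 21.9% of all genes (median 0.19, and 0.00 over all genes tested). TP53INP1 went from 19.9, 21.4 and 21.6 to 768, 750 and 798 CPM (5.16, SE 0.08, adjusted p = 5.07e-11). CTSB went from 67.4, 71.9 and 61.7 to 141, 141 and 146 (1.05, SE 0.07). TFEB went from 37.3, 36 and 33.5 to 40.9, 48.4 and 46.6 (0.31, SE 0.07). None of these groups overlapped. GABARAPL1 rose from 1.98, 1.44 and 1.12 to 3.25, 3 and 3.11 CPM (1.01). WIPI1 (0.90) and MAP1LC3B (0.64) rose too. CTSC fell from 120, 128 and 148 to 87.9, 92 and 93.9 CPM (-0.57, SE 0.08), MCOLN1 from 19.3, 18.3 and 16.4 to 12.7, 13.8 and 13.7 (-0.47, SE 0.09), and GUSB from 124, 119 and 120 to 96, 98.4 and 99.4 (-0.34).

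The comparison of this response with the parental one depended on the parental control. Against the untreated group of the CHIR-99021 set, 3 of 42 members differed, each lower in the knockout, while 1.1% of genes had a higher response there and 2.38% a lower one: TFEB (-0.67, SE 0.09, adjusted p = 1.97e-04), TP53INP1 (-0.44, SE 0.08, adjusted p = 0.00537) and MCOLN1 (-0.41, SE 0.11, adjusted p = 0.0478). Against the other untreated group 18 differed, 14 higher and 4 lower, beside 12.9% and 11.7% of all genes. TFEB was -0.34 (adjusted p = 0.0179), TP53INP1 turned to 0.39 (adjusted p = 0.00301) and MCOLN1 was -0.01 (adjusted p = 0.981). TFEB, at 40.9 to 48.4 CPM in treated knockout and 50.4 to 53 in treated parental libraries, was the 1 of these 3 whose lower response passed the threshold against either control. The MCOLN1 call was kept in 2 of 12 omissions of 1 library, and without untreated knockout replicate 3, 10 members differed.

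Untreated knockout cells differed from untreated parental cells in 16 of 41 members, 13 higher and 3 lower, beside 15.3% and 11.8% of all genes (median 0.09, and -0.01 over all genes tested). Against the other untreated group the split was 7 higher and 9 lower, beside 19.5% and 17% of all genes, and 6 of the calls were kept: ULK2 (1.19 and 0.62), TP53INP1 (1.01 and 0.21), TFEB (0.52 and 0.22) and ATG14 (0.21 and 0.19) higher, SQSTM1 (-0.39 and -0.43) and BECN1 (-0.21 and -0.24) lower. ULK2 had 8.69, 9.11 and 10.3 CPM in the knockout, against 4.71, 4.04 and 3.76 and, in the other group, 6.16, 6 and 5.7. SQSTM1 had 35.8, 32.6 and 35 CPM, against 45.5, 45.9 and 45.9 and 43.4, 46.9 and 46.5. BECN1 had 66.5, 65.4 and 73.7 CPM, against 82.2, 77.8 and 81.2 and 79.1, 77.6 and 82.1. None of these 6 genes overlapped between the knockout and either untreated group. GAA, at 49.5, 43.1 and 43.8 CPM, was higher by 0.83 than in one group and by 0.16 (adjusted p = 0.104) than in the other. ATG5, at 39.4, 36.3 and 42.9 CPM against 47.1, 46.3 and 46.2, was lower in the first comparison (-0.21), a call kept in 1 of 6 omissions of 1 library. Without parental replicate 1, 2 or 3 of the first comparison, 10, 8 and 8 members were called. Over all genes, 4655 were called with every library and 2804 without parental replicate 1.

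With dexamethasone 29 of 41 members were higher than in the untreated knockout and 2 lower, beside 26% and 26.3% of all genes (median 0.30, and -0.01 over all genes tested), although the untreated libraries may belong to another set. With the difference between the untreated Nalm6 sets subtracted, 17 members were higher and 6 lower, beside 18.5% and 21.5% of all genes; 17 of the 31 calls were kept and 8 members turned direction. TP53INP1 had 746, 718 and 746 CPM against 19.9, 21.4 and 21.6 (5.15, SE 0.07), GABARAPL1 4.05, 4.31 and 4.17 against 1.98, 1.44 and 1.12 (1.48, SE 0.18), and CTSC 93.7, 94.2 and 94.4 against 120, 128 and 148 (-0.47, SE 0.08), each without overlap. TFEB was higher by 0.28 and had -0.03 after the subtraction. CTSZ, a carboxypeptidase, had 2.75, 2.06 and 2.32 CPM against 1.15, 0.734 and 0.803 (1.43) and had 0.21 in counts that ignore strand. ATG7 had 25.4, 28.5 and 26.2 against 32, 30.2 and 31.9 and was lower (-0.22), with -0.08 after the subtraction.

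**Figure D5:**
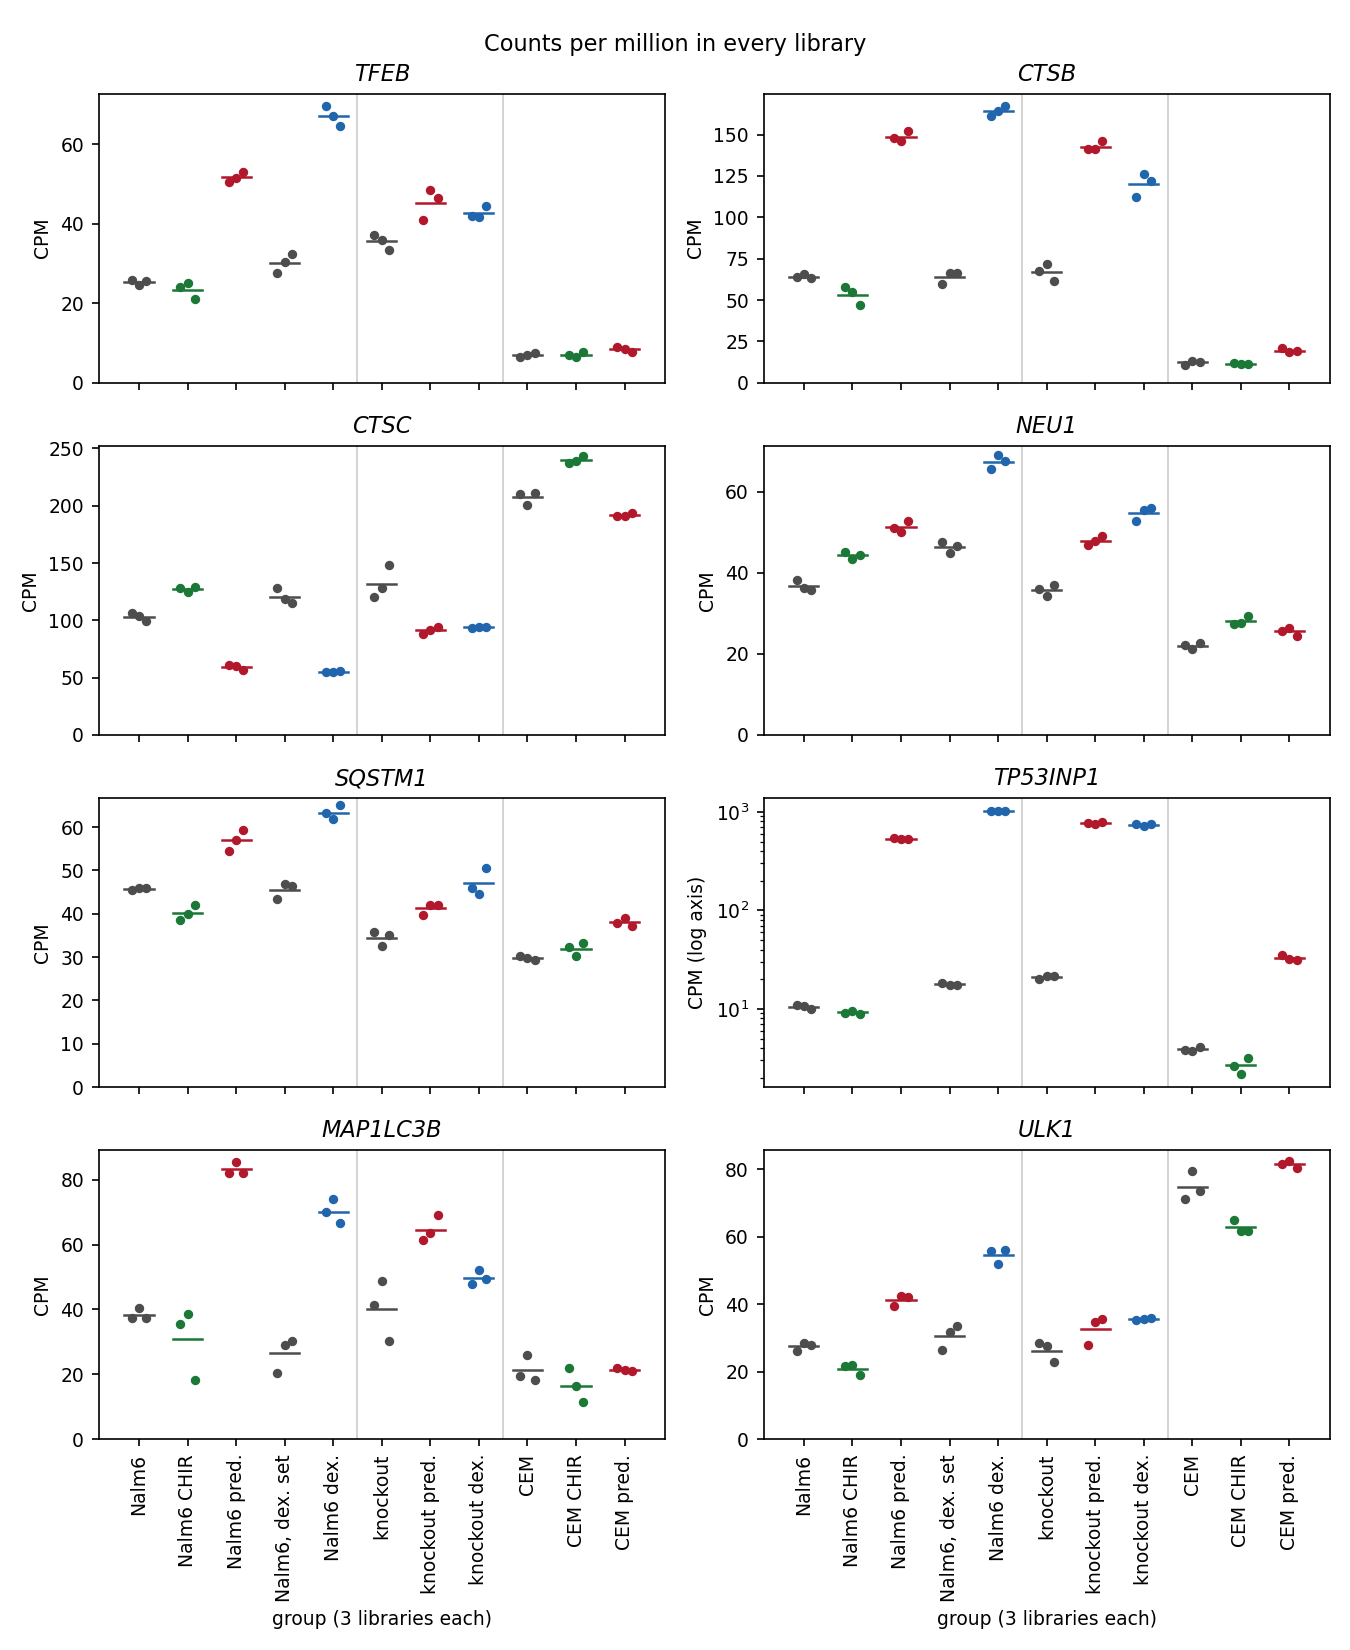
CPM in each of the 33 libraries (points, 3 per group) with the group mean (bar) for 8 members across the 11 groups, in grey untreated, green CHIR-99021, red prednisolone and blue dexamethasone; the TP53INP1 axis is logarithmic. CTSC is higher with CHIR-99021 and lower with steroid than its untreated group in Nalm6 and CEM, NEU1 is higher with CHIR-99021 in both lines, and 1 Nalm6 CHIR-99021 library of MAP1LC3B lies at 18.3 CPM.

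Other genes of the pathways were read from 3 further lists, chosen by function. Of 36 other autophagy genes, 9 were called with CHIR-99021 in Nalm6, each lower, beside 4.72% of all genes lower and 3.16% higher: BNIP3L, a mitophagy receptor (-0.48, SE 0.05), ATG13, a subunit of the ULK1 complex (-0.47, SE 0.06), WDR45 (-0.45, SE 0.10), NBR1, OPTN, WIPI2, EPG5, RB1CC1 and ATG16L2. In CEM 2 of 35 rose and 11 fell, beside 5.41% and 5.43% of all genes, among the latter WDR45 (-0.37), BNIP3L (-0.33), RB1CC1 (-0.31) and ATG13 (-0.27). With dexamethasone 23 of 36 rose and 7 fell in Nalm6, beside 30.2% and 30.2% of all genes. Each of the 9 genes lowered by CHIR-99021 rose, where 75.3% of all genes called with both moved oppositely, by 0.21 (ATG16L2) to 0.98 (OPTN, a cargo receptor). RUBCN, an inhibitor of the BECN1 complex, rose as well (0.57). With prednisolone in CEM 8 of 35 rose and 6 fell, beside 22.3% and 22.8% of all genes, with TECPR1 (0.47), BNIP3, a mitophagy receptor (0.44), and ATG12 (0.38) among those that rose. BNIP3 also rose with CHIR-99021 in CEM (0.36). Set directly against CHIR-99021, prednisolone libraries had 20 of 36 higher and 3 lower in Nalm6, beside 27.5% and 25.1% of all genes, and 15 of 35 higher and 2 lower in CEM, beside 23.8% and 25% of all genes.

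Of 51 other lysosomal genes, 50 were matched. With CHIR-99021 4 of 45 rose and 4 fell in Nalm6, beside 3.16% and 4.72% of all genes, and 5 of 50 rose and 3 fell in CEM, beside 5.41% and 5.43% of all genes. LAPTM5, a lysosomal membrane protein of blood cells, fell in both (-0.50, SE 0.05, and -0.25, SE 0.04), CTSO (-0.34) and the progranulin gene GRN (-0.27) fell in Nalm6, and ASAH1, the acid ceramidase, rose in both (0.21 and 0.24). In CEM, CLCN7, a chloride exchanger, fell (-0.31) and ATP6V0A1, a pump subunit, rose (0.29). With dexamethasone in Nalm6 21 of 45 rose and 8 fell, beside 30.2% and 30.2% of all genes, and with prednisolone in CEM 23 of 50 rose and 6 fell, beside 22.3% and 22.8% of all genes. SMPD1, the acid sphingomyelinase, rose by 2.94 (SE 0.13) with dexamethasone in Nalm6 and by 1.51 (SE 0.07) with prednisolone in CEM. The cathepsin CTSV fell with dexamethasone (-1.15, SE 0.13), CLN3 rose (0.56) and the calcium channel TPCN1 fell (-0.47) with prednisolone in CEM. LAPTM5 rose by 1.27 with dexamethasone in Nalm6 and fell by 0.10 on the log2 scale with prednisolone in CEM.

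Of 25 genes of lysosomal nutrient sensing and TFEB control, CHIR-99021 moved 1 of 24 in Nalm6, where 3.16% of all genes rose and 4.72% fell, and 3 of 25 in CEM, where 5.41% rose and 5.43% fell. RRAGD, a GTPase that recruits mTORC1, rose in both (0.16, SE 0.04, and 0.14, SE 0.04), and fell with dexamethasone in Nalm6 (-0.25, SE 0.05) and with prednisolone in CEM (-0.15, SE 0.03). SESN2 rose (0.35) and RPTOR, a subunit of mTORC1, fell (-0.14) with CHIR-99021 in CEM, and SESN2 fell with prednisolone there (-0.34). Dexamethasone raised 12 of 24 and lowered 7 in Nalm6, beside 30.2% and 30.2% of all genes, and prednisolone raised 8 of 25 and lowered 5 in CEM, beside 22.3% and 22.8% of all genes. DDIT4, an inhibitor of mTORC1, rose by 1.84 and 2.20, and SESN1, of a family of leucine and stress sensors, by 1.17 and 1.75, in that order. GSK3B itself rose by 1.28 (SE 0.04) with dexamethasone in Nalm6 and by 0.14 (SE 0.04) with prednisolone in CEM.

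The members with an E-box core in their window were set beside those whose window lacks it, as a description without a test. With dexamethasone in Nalm6, 5 of 8 rose (median 0.16), and of 24 tested members without it 15 rose and 4 fell (median 0.35). Of all genes, 30.2% rose and 30.2% fell there. With prednisolone in CEM, 6 of 8 rose (median 0.19), and of 23 without it 9 rose and 1 fell (median 0.08), beside 22.3% and 22.8% of all genes. With CHIR-99021 in Nalm6, NEU1 was the 1 of 8 called, and 5 of the 23 others were, where 3.16% of all genes rose and 4.72% fell. LAMP1, with 6 copies of the core, had 0.17 with dexamethasone in Nalm6 and 0.19 with prednisolone in CEM. Between untreated lines, with Nalm6 of the dexamethasone set, 7 of the 8 were lower in CEM and CTSD was higher. Of 24 tested members without the core, 14 were lower and 6 higher, beside 37.3% and 40.2% of all genes. In that Nalm6 group 7 of the 8 were higher than in the other untreated one, as were 15 of 23 without the core. Of all genes, 25.8% were higher there and 24.4% lower. Against the other group the call for CTSA, which holds the core, was lost. No link between core and line is read from these counts.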

How the data were processed

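RNA from 33 libraries, 3 in each of 11 groups, was counted per gene. Each deposited file holds raw counts in the STAR gene count layout, per the file headers and columns; the submitters' processing notes name Bowtie2, DESeq2 and hg19, and 52953 gene IDs carry a suffix of lifted annotation. Column 4 (reads on the reverse strand) was used, and column 2, which ignores strand, was an alternative. Totals were 25292579 to 61930057 counts in genes; the 4 rows that name no gene took 36.0% to 49.2% of a file and were left out. Groups followed titles and treatment labels.

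Counts were filtered (filterByExpr), scaled by TMM and tested with edgeR 4.0.16 (quasi-likelihood F test, R 4.3.3, limma 3.58.1) per comparison, adjusted over all genes by Benjamini-Hochberg; differences between responses were interaction terms. Each fit used the groups compared. The SE is the fold change divided by the root of F. The design text gives 3 independent experiments for Nalm6 with CHIR-99021 and the knockout with prednisolone; elsewhere p-values measure the spread between libraries, which may be technical. Replicate pairs of a group differed by more than counting noise (chi-square per degree of freedom 1.85 to 43.7). With 3 against 3, an exact permutation test of 1 value cannot go below p = 0.1, so none is printed.

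The members and lists were chosen with earlier results of these data known. Members given by library were TFEB, TFE3, MITF, SQSTM1, those called with both CHIR-99021 and dexamethasone in Nalm6, and per comparison the 3 called with the largest change in each direction (mean of 1 CPM or more in the treated and knockout comparisons). List genes were the 3 with the largest change per drug comparison with an untreated group of the same line and set; further names were chosen after their values were seen. Alternatives were DESeq2 1.42.0, RLE factors, no filter, 10 counts in every library, a fit of all groups, a replicate block, column 2, omission of each library and, added after seeing the data, the other untreated Nalm6 group; the comparison between the untreated Nalm6 groups was added then too. The scripts were tested on simulated data. Promoter windows come from RefSeq (GRCh38.p14), matched by symbol; no hg19 coordinate is given.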

Additional observations from a re-analysis of the deposited data

Results flagged for a closer look

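For 24 member results, the size of a drug response differed between knockout and parental cells or between the lines by a test of the difference itself (edgeR interaction term, adjusted p under 0.05), on 3 libraries a group. The response to prednisolone in the knockout minus that in parental Nalm6 was -0.67 for TFEB, -0.44 for TP53INP1 and -0.41 for MCOLN1 (log2). With the other untreated Nalm6 group the values were -0.34, 0.39 and -0.01, so TP53INP1 turned direction.

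The response to CHIR-99021 in CEM minus that in Nalm6 was 0.31 for SQSTM1, at 2 µM and 0.5 µM.

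For prednisolone (10 µM in CEM, 5 µM in Nalm6), the response in CEM minus that in Nalm6 was lower for TP53INP1 (-2.56), MAP1LC3B (-1.10), TFEB (-0.74), WIPI1 (-0.62), CTSB (-0.55), ULK1 (-0.46), LAMP2 (-0.38), NAGLU (-0.34), BECN1 (-0.28), NEU1 (-0.25), ATP6AP1 (-0.22) and ATG16L1 (-0.21). It was higher for CTSC (0.70), CTSS (0.51), CTSD (0.32), ATP6V0D1 (0.32), GUSB (0.31), GLB1 (0.30), GAA (0.29) and CTSA (0.23). With the other untreated Nalm6 group, WIPI1 (0.05), NAGLU (0.05), NEU1 (0.16) and ATP6AP1 (0.17) turned direction and the other 16 calls were kept.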

How the results depend on the processing

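Most member values kept their call under the settings of the tests. Of 313 called values, DESeq2 kept 292, RLE size factors 310, no filter 301, a fit of all groups 297 and counts that ignore strand 287, and none of these reversed a call except counts that ignore strand, for CTSZ between the untreated Nalm6 groups (-0.15). Between untreated lines CTSZ, not called, went from -0.05 to 0.34 in those counts. Same-numbered libraries did not deviate together (correlations from -0.118 to 0.0821 over 36 values). With 3 libraries a group and noise in single libraries, this check cannot exclude a pairing. With a replicate block 259 of 276 calls were kept. The number of members whose CHIR-99021 response differed between lines then went from 1 to 0, and the opposite directions under CHIR-99021 and dexamethasone from 6 to 4. That block could not be fitted for CEM against Nalm6. Without a filter 11 members were called with CHIR-99021 in Nalm6. The prednisolone response differed between knockout and parental cells in 3 members, in 5 without a filter, in 1 in counts that ignore strand, in 5 with all groups fitted and in 18 with the other untreated group. The CHIR-99021 response differed between lines in 2 in counts that ignore strand.

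Leaving out 1 library gave 2 to 11 members called with CHIR-99021 in Nalm6, 8 to 22 in the untreated knockout, 5 to 10 with CHIR-99021 in CEM, 2 to 10 for the difference between knockout and parental cells, 0 to 1 for that between lines, and 2 to 8 opposite directions. The share of all genes called moved too. Over all settings run, it was 2.23% to 14.8%, 16.5% to 36.7%, 5.68% to 12.4%, 1.99% to 24.6% and 0.722% to 2.99% in these comparisons, in that order. MAP1LC3B with prednisolone in CEM ranged from -0.12 to 0.15, the latter without untreated replicate 2.

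The untreated Nalm6 group turned more values than any other setting run. With the other group, prednisolone in Nalm6 was ATP6V1H -0.25, TFE3 -0.01, ATP6AP1 -0.19, ULK2 -0.60, CTSZ -0.93, ATP6V1A -0.03, CTSD -0.21, ATP6V0D1 -0.36, TPP1 -0.17, GLB1 -0.09 and LAMP1 -0.14. The untreated knockout was ATP6V1H -0.23, ATP6AP1 -0.04, MCOLN1 -0.08, CTSZ -0.06, ATP6V0D1 -0.17 and TPP1 -0.21. The difference between knockout and parental responses was CTSA 0.38, ATP6AP1 0.35, ATP6V0D1 0.24, TP53INP1 0.39, GAA 0.52, LAMP1 0.19 and NEU1 0.37, and that between lines WIPI1 0.05, ATP6AP1 0.17, NAGLU 0.05, TPP1 0.47 and NEU1 0.16. CEM against Nalm6 was ATP6AP1 0.09, CTSZ 1.47 and NAGLU 0.06. With the set difference subtracted, the knockout with dexamethasone was CTSA -0.17, ATP6AP1 -0.01, ULK2 -0.38, CTSZ -0.06, TFEB -0.03, ATP6V0D1 -0.32, GAA -0.42 and LAMP1 -0.06. The cause of these changes was not tested. Low or absent counts limited the tests of MITF, CTSL and MAP1LC3A, of CTSH in Nalm6 and knockout cells, and of ULK2 in CEM. The floor of 3 counts was at most 1.19e-05% of a library.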

Other observations

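The further pathway lists were also read with prednisolone in the knockout, where 19.8% of all genes rose and 21.9% fell. Of 36 other autophagy genes, 13 rose and 3 fell: OPTN, a cargo receptor, rose (0.99, SE 0.06), ATG2B, a lipid transfer protein related to ATG2A, rose (0.53, SE 0.06), and the mitophagy receptor BNIP3 fell (-1.22, SE 0.08). Of 44 other lysosomal genes tested, 15 rose and 4 fell; SMPD1 rose (2.06, SE 0.17), LAPTM5 rose (1.18, SE 0.08) and the cathepsin CTSV fell (-1.15, SE 0.19). Of 24 genes of nutrient sensing, 6 rose and 6 fell, with SESN3 (0.86, SE 0.08), DDIT4 (0.80, SE 0.06) and GSK3B (0.68, SE 0.07) higher.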
